A study of Homo sapiens with 12 samples.

Results

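The ERBB receptors and their ligands were followed in SKOV-3 cells, a long-established line from a human ovarian adenocarcinoma in which ERBB2 is amplified. The 4 receptor genes EGFR, ERBB2, ERBB3 and ERBB4 and the 6 ligand genes AREG, EREG, HBEGF, TGFA, NRG1 and BTC were taken by name, 10 of the 59498 gene identifiers in the deposited count table, and all 10 passed the filter on low counts. Poly(A) RNA had been sequenced from 4 groups of 3 libraries. The parental group was wild type and not drug resistant, and the resistant group was wild type and resistant to cisplatin, a platinum drug that crosslinks DNA. The other 2 groups were parental and resistant cells with a label that says KDM5A and KDM5B were both knocked out; these genes encode enzymes that take methyl groups off histone H3 at lysine 4. The labels do not say how the knockout was made, whether each line is a clone, or whether cisplatin was present when the RNA was taken.

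ERBB receptors are tyrosine kinases that pair with each other when a ligand binds outside the cell. EGFR binds amphiregulin (AREG), epiregulin (EREG), transforming growth factor alpha (TGFA), betacellulin (BTC) and heparin-binding EGF (HBEGF), while neuregulin 1 (NRG1) binds ERBB3 and ERBB4. ERBB2 has no known ligand of its own, and ERBB3 has little kinase activity, so both work through a partner. The ligands are made as membrane proteins, released by proteases such as ADAM17, and signal mainly through RAS, the MAP kinases and PI3 kinase.

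Each library held 15659352 to 19706754 counts. The KDM5A transcript was lower in all 6 libraries labelled knockout than in every control of the same background (mean log2 difference -1.13, two-sided exact permutation p = 0.005, the smallest this design allows). For KDM5B this held in 2 of 6 (mean log2 difference -0.33, exact permutation p = 0.445), so these libraries are called by their label, and the proteins were not measured. Of 8 ovarian epithelial markers, 6 or 7 reached 1 CPM in each group; CPM is the read count scaled to the TMM-adjusted library size. Group means of WT1 and MUC16 did not exceed 2.23 CPM, EPCAM averaged 35.0 CPM in parental and 4.13 in resistant cells, and KRT8 averaged 224 and 1376 CPM. Between resistant and parental cells KRT18, KRT8 and WT1 were higher and EPCAM and KRT7 lower, 3 and 2 of the 8 (edgeR, adjusted p at most 0.05). Of 4 mesothelial markers CALB2 was higher and MSLN lower. Over all genes 15.2% were higher and 12.8% lower. The 9 fibroblast markers summed to 1.97 to 8.70 CPM in parental libraries, 2.35 to 28.4 with the knockout label, 361 to 967 in resistant libraries and 2556 to 4495 in resistant libraries labelled knockout, mostly from COL1A1. Of these 9, 1, 3, 6 and 7 reached 1 CPM in that order of groups, and none was at 0 counts in all 3 libraries of a group. Between resistant and parental cells 6 of the 9 were higher and 1, DCN, lower (edgeR, adjusted p at most 0.05), against 15.2% and 12.8% of all genes. Among libraries labelled knockout 6 were again higher and DCN lower, against 13.6% and 10.2%. Endothelial markers reached 1 CPM for at most 1 of 6 and leukocyte markers for 1 of 7, CD68. Their part in the results was not tested, and in bulk RNA fewer cells of a type and less RNA per cell cannot be told apart. The labels do not tell whether replicate libraries come from separate cultures; p-values therefore measure only how much these libraries vary, and that variation may be technical.

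Resistant cells carried a different set of these transcripts from parental cells. HBEGF and ERBB3 rose, while ERBB2, EGFR and the ligands AREG, EREG, TGFA and BTC fell, so 8 of 10 genes passed, 2 higher and 6 lower. Over all 17947 genes tested 28.0% passed, 15.2% higher and 12.8% lower (edgeR quasi-likelihood test, Benjamini-Hochberg adjusted p at most 0.05). The groups did not overlap for 9 of the 10, against 45.5% of all genes. The median log2 fold change of the 10 was -2.43, against 0.02 for all genes. The 10 were chosen with earlier results of these data known, so these shares are a description. Leaving out 1 library at a time gave 6 to 9 genes, and 8 passed without both parental libraries numbered 3 and resistant library 1, which stand apart for ERBB2 or EGFR.

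**Figure D1:**
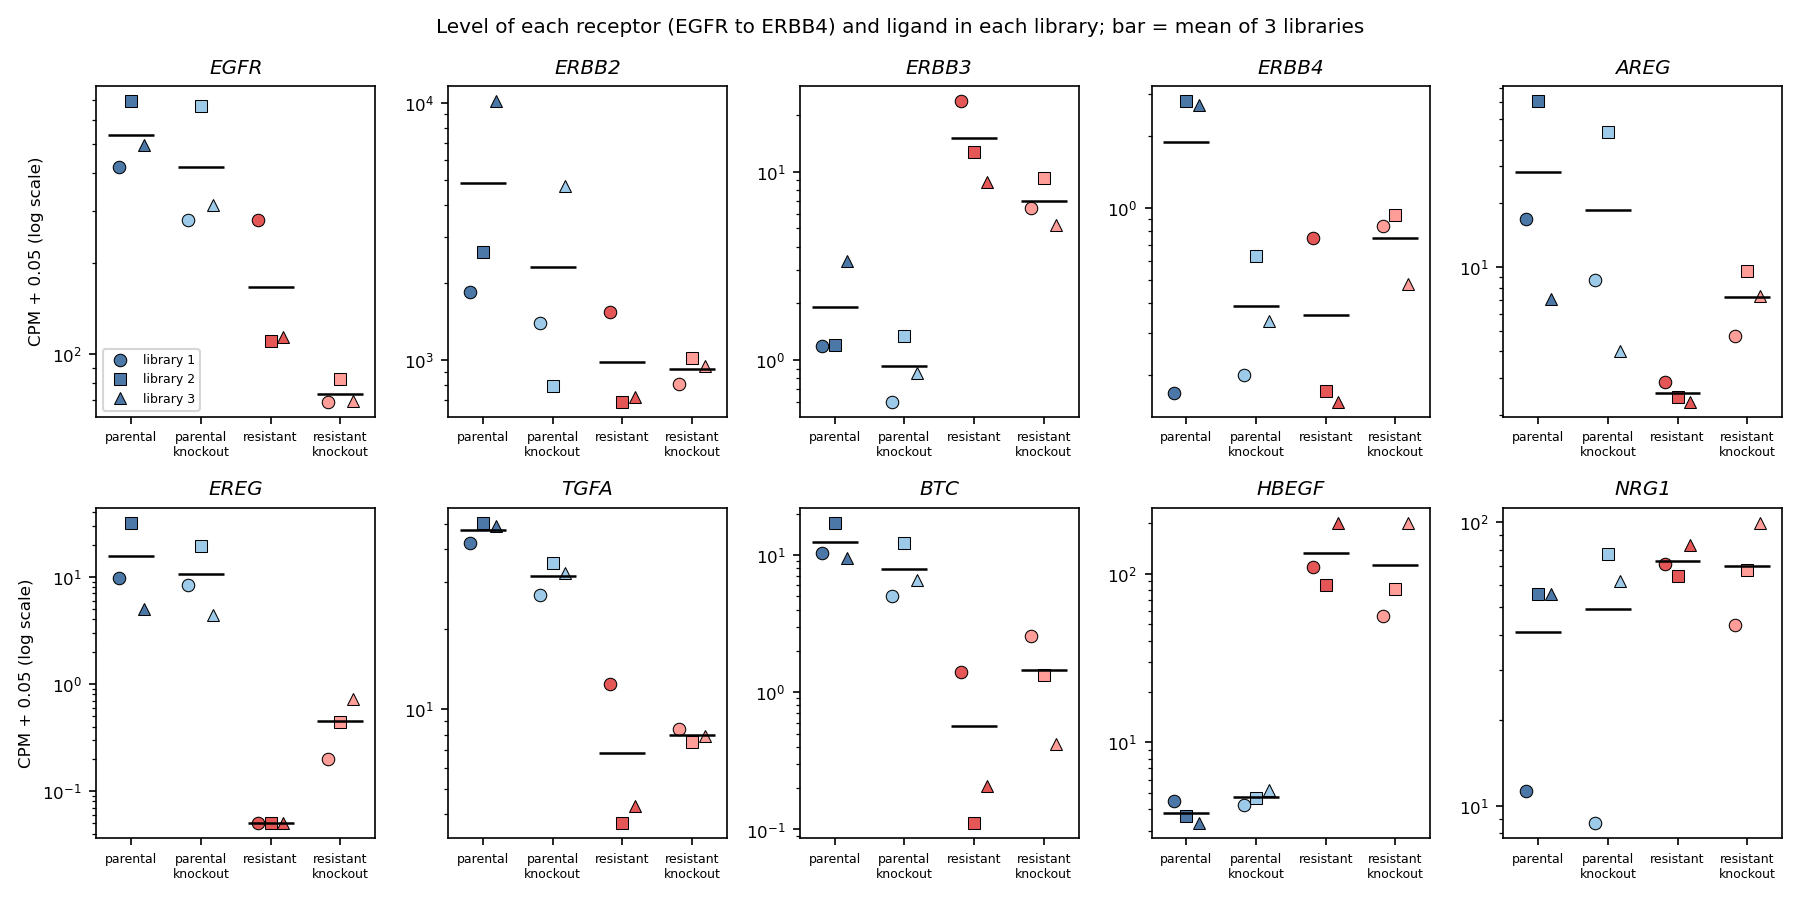
Level of each receptor and ligand in each library, in CPM plus 0.05 on a log scale, with circles, squares and triangles for libraries 1, 2 and 3 and a bar for the group mean. HBEGF lies at 3.26 to 4.42 CPM in parental and 85.9 to 201 CPM in resistant libraries, and ERBB2 reaches 10141 CPM in parental library 3.

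ERBB2 (ENSG00000141736, GRCh38 chromosome 17, 39687914 to 39730426, plus strand) was the most abundant receptor transcript, and it varied widely among parental libraries. It measured 1842, 2633 and 10141 CPM in parental libraries 1, 2 and 3 and 1538, 690.0 and 718 CPM in resistant ones. Every resistant library lay below every parental one, though resistant library 1 came close to parental library 1. In parental library 3 ERBB2 took 0.994% of all counts (95% Wilson interval 0.990 to 0.998, counting error only) and ranked 3 among all genes, against 0.193% and 0.239% in parental libraries 1 and 2. The mean fell from 4872 ± 4580 CPM (SD, n = 3) to 982 ± 482, a log2 fold change of -2.31 ± 0.72 (SE, adjusted p = 0.0301). This call rested on single libraries. Without parental library 3 the change was -1.21 (adjusted p = 0.158), without resistant library 2 it was -2.11 (0.103) and without resistant library 3 it was -2.10 (0.100). Without both parental libraries numbered 3 it was -1.21 with an adjusted p of 0.0463, and without resistant library 1 as well it was -1.66 (0.00798). Exons of PGAP3 and MIEN1 overlap those of ERBB2 on the other strand, and no source used here gives the strand setting of the counting, so reads of the 3 genes may be shared.

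The spread of ERBB2 differed among the 4 groups. The highest library held 5.50 times the lowest in parental cells and 5.93 times in parental cells labelled knockout, where the values were 1392, 798 and 4731 CPM. Library 3 was the highest in both. In resistant cells the ratio was 2.23 and in resistant cells labelled knockout, at 811, 1016 and 949 CPM, it was 1.25. MIEN1, a gene for a small membrane-associated protein, lies on the minus strand at 39728496 to 39730787 and overlaps the end of ERBB2. Reads of these genes may be shared, as stated above. MIEN1 repeated the pattern with 607, 627 and 2203 CPM in parental cells and 386, 245 and 962 CPM with the knockout label. Its resistant libraries held 107, 105 and 76.7 CPM, below all 6 parental-background libraries.

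Genes beside ERBB2 on 17q12 were then read, since amplification at ERBB2 usually takes in genes beside it. Of 21 neighbours 18 were tested, and 5 were lower and 0 higher in resistant cells, with a median log2 fold change of -0.65, against 12.8% lower, 15.2% higher and a median of 0.02 over all genes. PPP1R1B, an inhibitor of protein phosphatase 1, measured 232, 453 and 1051 CPM in parental libraries and 1.05, 0.670 and 0.0526 CPM in resistant ones (log2 fold change -9.94 ± 1.08, adjusted p = 4.47e-05). MIEN1 fell by 3.57 (adjusted p = 0.00105), PNMT, which makes adrenaline, by 3.98 (0.00488) and the neuronal factor NEUROD2 by 2.44 (0.00200). The fifth was NR1D1 (-1.47, adjusted p = 0.0334), which lies outside the 4 largest changes and is named because the count is small. It is the gene at 404873 bases and so is not directly beside ERBB2. STARD3 (-1.09, adjusted p = 0.114), GRB7 (-1.90, 0.0617) and PGAP3 (-0.53, 0.402) did not pass. Their estimates were also negative, and the neighbours were not tested against each other. Across the 12 libraries, deviations of log2 CPM from the group mean were set against those of ERBB2, and Pearson's r was highest for MIEN1 (0.92), STARD3 (0.88), GRB7 (0.79), PPP1R1B (0.76), TCAP (0.67) and PGAP3 (0.62). Farther out the values were 0.38 for MED24, 0.37 for THRA, 0.33 for ORMDL3, 0.19 for GSDMB, 0.15 for FBXL20, -0.21 for CDK12, -0.55 for MED1, -0.58 for PSMD3 and -0.83 for NR1D1. The ranking took in 11228 protein-coding genes, and each count that follows includes ERBB2 itself. A higher r with ERBB2 than MIEN1 was found for 60 genes, than STARD3 for 186 and than GRB7 for 593. The counts were 784 for PPP1R1B, 1250 for TCAP and 1557 for PGAP3. The same libraries and few degrees of freedom enter each r.

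**Figure D2:**
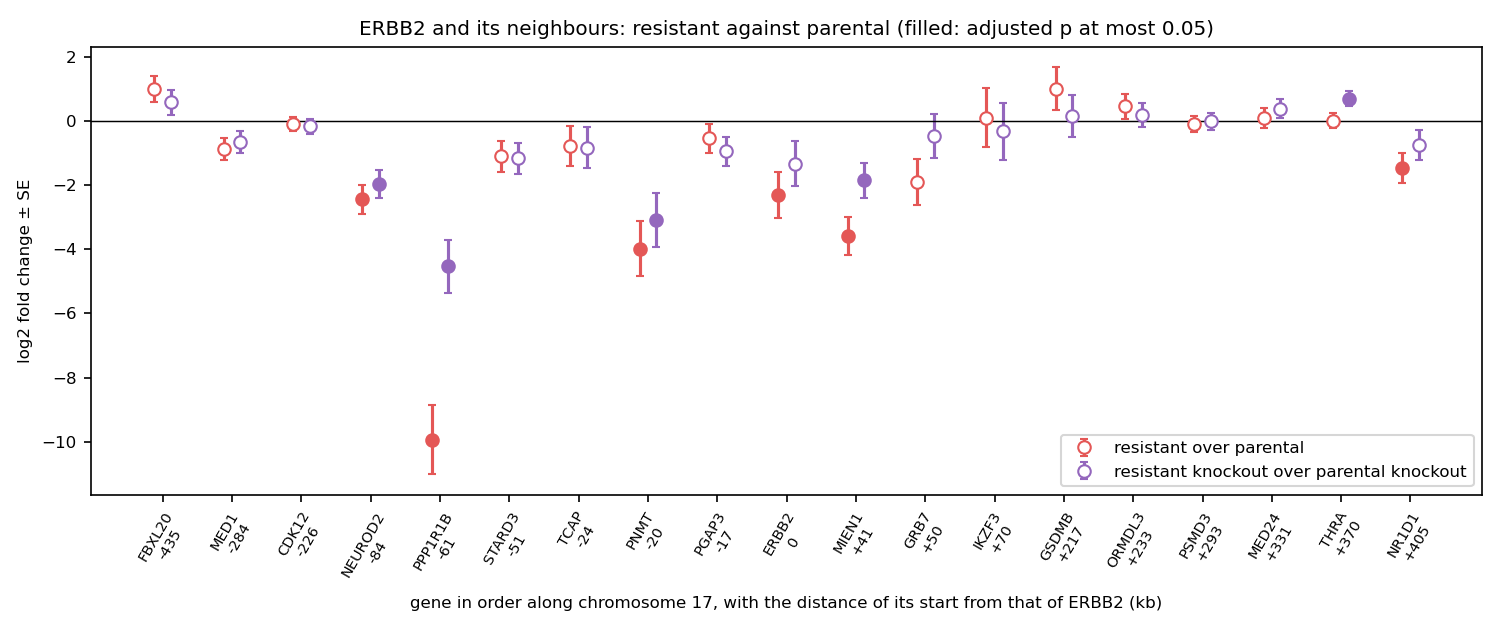
Log2 fold change with SE of ERBB2 and its tested neighbours, in order along chromosome 17 with the distance of each start from that of ERBB2 in kb, for resistant over parental cells (red) and the same among libraries labelled knockout (violet); filled points have an adjusted p of at most 0.05. PPP1R1B is lowest in both, at -9.94 and -4.53, and ERBB2 is filled only without the knockout label. A start here is the lowest coordinate of a gene, whichever its strand.

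EGFR (ENSG00000146648, chromosome 7, 55019021 to 55211628, plus strand), the receptor of most of these ligands, was lower in resistant cells. It measured 418, 694 and 497 CPM in parental libraries and 278, 111 and 114 CPM in resistant libraries. The groups did not overlap, and resistant library 1 was again the highest of its group. The mean fell from 536 ± 142 to 167 ± 95.6 CPM (log2 fold change -1.68 ± 0.43, adjusted p = 0.0117). The antisense gene EGFR-AS1 held 30 counts over the 12 libraries. The EGFR call was lost without parental library 2 (-1.45, adjusted p = 0.0506) and without resistant library 2 (-1.46, 0.0544).

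ERBB3 (ENSG00000065361, chromosome 12, 56076799 to 56103505, plus strand), the partner through which ERBB2 engages PI3 kinase, rose from a low level. Parental libraries held 1.14, 1.15 and 3.31 CPM, from 19, 18 and 64 counts, and resistant libraries 23.7, 12.7 and 8.73 CPM. Each resistant library exceeded each parental one. The log2 fold change was 3.00 ± 0.55 (adjusted p = 0.00181), a mean ratio of 8.05, and it passed under all 22 alternatives. AC034102.2, annotated on the same strand, shares exon sequence with ERBB3 and was not analysed here.

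ERBB4 (ENSG00000178568, chromosome 2, 211375717 to 212538841, minus strand), the second neuregulin receptor, was near the limit of detection. Parental libraries held 0.119, 2.75 and 2.64 CPM from 2, 43 and 51 counts, and resistant libraries 0.700, 0.122 and 0.105 CPM from 12, 2 and 2. Parental library 1 lay among the resistant libraries, so the groups overlapped. The log2 fold change of -2.55 ± 0.96 missed the threshold (adjusted p = 0.0647). It passed in 4 of 21 alternatives, with -3.11 (adjusted p = 0.0150) without parental library 1 and -3.94 (0.0345) without resistant library 1.

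Per kilobase of exon, which allows genes to be compared, the receptors kept the order ERBB2, EGFR, ERBB3, ERBB4 in all 4 groups. In parental cells ERBB2 averaged 472 and EGFR 42.8 CPM per kb, while ERBB3 at 0.207 and ERBB4 at 0.141 overlapped. In resistant cells the levels were 95.1, 13.4, 1.66 and 0.0238 CPM per kb, with no overlap between neighbours in the order. ERBB2 made up 87.4 ± 7.55% of the summed receptor level in parental cells and 86.6 ± 0.828% in resistant cells.

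AREG (ENSG00000109321, chromosome 4, 74445134 to 74455009, plus strand) and EREG (ENSG00000124882, chromosome 4, 74365143 to 74388751, plus strand) are neighbouring genes, and they varied together. AREG measured 16.8, 60.8 and 6.99 CPM in parental libraries and 2.80, 2.38 and 2.26 CPM in resistant ones. EREG measured 9.62, 32.1 and 4.97 CPM in parental libraries and had 0 counts in all 3 resistant libraries. For both genes parental library 2 was highest, parental library 3 lowest, and every resistant library below every parental one. AREG fell by 3.50 ± 0.89 on the log2 scale (adjusted p = 0.0115), and without parental library 2 the change was -2.26 (adjusted p = 0.0672). EREG, with 758 counts over the parental group, was at least 272.7-fold lower against a floor of 3 counts over the group (adjusted p = 0.000350). The fitted EREG fold change depends on the prior count and is not used. Over the 12 libraries the deviations of AREG and EREG from the group means had r = 0.93, the highest of the 45 pairs of receptors and ligands, and AREG and ERBB2 had -0.69, the lowest. Fewer than 12 independent values enter each r, since same-numbered parental libraries with and without the knockout label deviated alike (r of 0.70 to 0.83). EREG, at 0 counts, does not vary among the resistant controls.

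The upstream sequences of these 2 genes are shown because they changed together, with that of HBEGF, which changed the other way. They are the 250 bases before the transcript start from RefSeq (GRCh38.p14), 5′ to 3′ on the gene's strand, at chr4:74444886-74445135 (plus), chr4:74364895-74365144 (plus) and chr5:140346604-140346853 (minus). Capitals mark a match to a searched motif.
AREG: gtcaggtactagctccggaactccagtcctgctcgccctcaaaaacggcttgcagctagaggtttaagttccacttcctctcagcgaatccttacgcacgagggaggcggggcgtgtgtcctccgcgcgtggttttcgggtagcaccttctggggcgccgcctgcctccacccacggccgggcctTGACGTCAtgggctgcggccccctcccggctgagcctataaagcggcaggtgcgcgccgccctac
EREG: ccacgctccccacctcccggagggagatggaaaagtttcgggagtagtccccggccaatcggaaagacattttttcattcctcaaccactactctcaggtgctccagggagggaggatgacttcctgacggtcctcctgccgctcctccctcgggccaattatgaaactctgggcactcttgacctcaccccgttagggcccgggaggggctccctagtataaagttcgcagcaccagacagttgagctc
HBEGF: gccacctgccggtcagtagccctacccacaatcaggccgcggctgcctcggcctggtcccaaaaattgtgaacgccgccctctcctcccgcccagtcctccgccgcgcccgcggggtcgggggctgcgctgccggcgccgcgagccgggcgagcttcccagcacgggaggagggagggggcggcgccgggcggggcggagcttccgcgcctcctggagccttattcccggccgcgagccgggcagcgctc
The window of 300 bases, 250 before and 50 after the start, was searched on both strands for the cyclic AMP response element TGACGTCA, the AP-1 site TGACTCA or TGAGTCA, and the ETS site CCGGAAG or CTTCCGG. No match overlapped another. AREG held the cyclic AMP element from position -65, a motif found in 1.85% of 35116 RefSeq promoters. EREG and HBEGF held none of the 3. Entries were found for 8 of the 10 genes, all but ERBB3 and NRG1. Among the others, ERBB2 had 2 ETS matches, at -26 and -14 (10.3% of promoters hold 1 or more), and the second EGFR start had 2 AP-1 matches, at -232 and -136 (4.95%). CpG pairs numbered 27 in AREG, 12 in EREG and 38 in HBEGF, against a median of 14. A match describes letters in this window and nothing about binding in these cells.

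TGFA (ENSG00000163235, chromosome 2, 70447280 to 70554193, minus strand) was the most even ligand among parental libraries, at 42.2, 50.4 and 49.1 CPM. Resistant libraries held 12.4, 3.66 and 4.26 CPM. The groups were far apart, with resistant library 1 above the other resistant libraries. TGFA fell by 2.80 ± 0.41 on the log2 scale (adjusted p = 0.000365) and passed under all 22 alternatives.

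BTC (ENSG00000174808, chromosome 4, 74744759 to 74794686, minus strand), a ligand of EGFR and ERBB4, lies on the same chromosome arm as AREG and EREG. It measured 10.3, 17.2 and 9.53 CPM in parental libraries and 1.34, 0.0609 and 0.158 CPM in resistant ones, from 23, 1 and 3 counts. No library of the groups overlapped, and resistant library 1 held most of the resistant counts. The log2 fold change was -4.55 ± 0.91 (adjusted p = 0.00301), and it passed under all 22 alternatives. Deviations of TGFA followed those of BTC (r = 0.80) and EGFR (r = 0.80), and in these 3 genes resistant library 1 was the highest of its group.

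HBEGF (ENSG00000113070, chromosome 5, 140332843 to 140346631, minus strand) is a ligand of EGFR and ERBB4 that also binds heparan sulphate. Among the 6 ligands followed here it alone passed as higher. It measured 4.42, 3.59 and 3.26 CPM in parental libraries and 109.6, 85.9 and 201 CPM in resistant ones. The lowest resistant library lay far above the highest parental one. The mean rose from 3.76 ± 0.598 to 132 ± 60.6 CPM, 35.2-fold (log2 fold change 5.13 ± 0.51, adjusted p = 2.32e-05). HBEGF passed under all 22 alternatives, with log2 fold changes from 4.74 to 5.37.

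NRG1 (ENSG00000157168, chromosome 8, 31639386 to 32767959, plus strand) measured 11.2, 55.8 and 55.9 CPM in parental libraries and 71.3, 64.6 and 83.1 CPM in resistant ones. The groups did not overlap, since all resistant libraries were higher, but parental library 1 alone was far below the rest. The log2 fold change was 0.83 ± 0.67 (adjusted p = 0.378), which did not pass under any of 22 alternatives. The low level in library 1 recurred in parental cells labelled knockout, at 8.62 CPM against 77.1 and 61.9.

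The make-up of the ligand pool was computed from CPM per kb, so shares and order depend on the annotated exon lengths. HBEGF made up 3.93 ± 1.89% of the summed level of the 6 ligands in parental cells and 80.8 ± 5.71% in resistant cells. AREG made up 37.6 ± 19.8% and 3.12 ± 1.16%, and TGFA 29.4 ± 12.7% and 2.81 ± 2.18%. These shares come from the same counts as the tests and are a description. The sum itself was 38.6 ± 22.8 CPM per kb in parental and 53.3 ± 20.5 in resistant cells, with overlapping libraries. In parental cells the order was AREG (17.1), TGFA (9.52), BTC (4.38), NRG1 (3.62), EREG (2.72) and HBEGF (1.24 CPM per kb), and only TGFA and BTC were neighbours without overlap. In resistant cells it was HBEGF (43.8), NRG1 (6.44), AREG (1.50), TGFA (1.36), BTC (0.185) and EREG (0), and only AREG and TGFA overlapped.

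**Figure D3:**
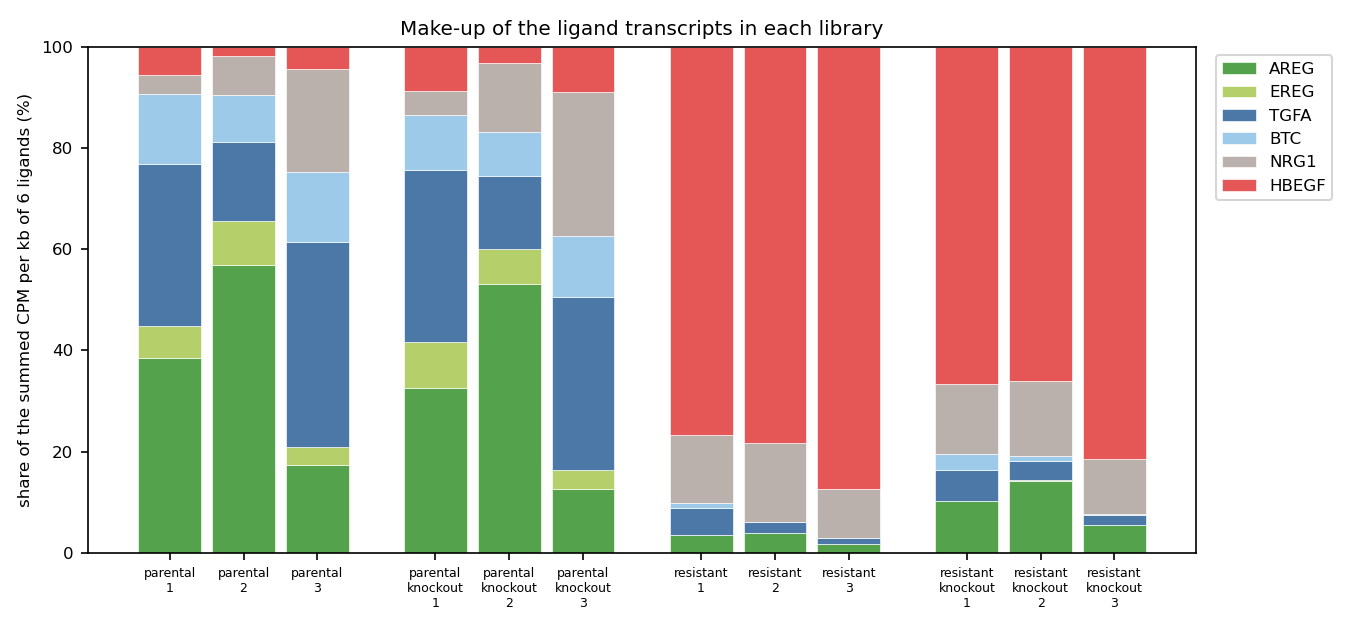
Share of each ligand, in percent, of the summed CPM per kb of the 6 ligands, with 1 bar for each of the 12 libraries. HBEGF fills 76.8 to 87.4% of the bar in resistant libraries and 1.83 to 5.52% in parental libraries.

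The knockout label moved none of the 10 genes past the threshold in parental cells. The count was 0 of 10 where 0.0% of all genes passed in edgeR, with 539 genes at an unadjusted p under 0.05 (ERBB4 among them), 11 passing in DESeq2 and 1 in limma-voom. With the replicate number as a block, which the pairing of parental libraries allows, 154 of all genes passed and still 0 of the 10. TGFA was the only member whose groups did not overlap, against 6.59% of all genes. It held 27.0, 35.6 and 32.6 CPM with the label, all below the 42.2 to 50.4 CPM of controls (log2 fold change -0.58 ± 0.38, adjusted p = 1). The largest difference was in ERBB4, at 0.150, 0.581 and 0.287 CPM with the label (-2.44 ± 0.96, adjusted p = 1), where parental library 1 was as low. For ERBB2 the change was -1.08 ± 0.69 (adjusted p = 1), and it was -1.01 without both libraries numbered 3. Taking out parental library 3 alone, which breaks its pair, gave 0.04. In pairs of the same number ERBB2, EGFR, AREG, EREG, TGFA and BTC were lower with the label in all 3 pairs, 6 of 10 where 23.2% of all genes were lower in every pair and 21.8% higher, and 0 of 10 were higher in every pair. AREG, at 8.62, 43.4 and 3.96 CPM with the label, and EREG, at 8.42, 19.2 and 4.31 CPM, again had library 2 highest and library 3 lowest.

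In resistant cells the knockout label also moved 0 of 10 past the threshold, against 0.212% of all genes (38 genes, all higher). At an unadjusted p under 0.05 were 1426 genes, EREG, EGFR and ERBB3 among them. Groups did not overlap for 3 members, AREG, EREG and EGFR, against 15.2% of all genes. AREG measured 4.65, 9.53 and 7.23 CPM with the label against 2.80, 2.38 and 2.26 CPM in controls, each above all controls (log2 fold change 1.52 ± 0.84, adjusted p = 0.716). EREG had 3, 7 and 11 counts with the label against 0 in all 3 controls, at least 7.10-fold higher against the floor of 3 counts (adjusted p = 0.373). It remained far below the parental level. EGFR was lower, at 69.2, 82.4 and 69.6 CPM against 278, 111 and 114 CPM (-1.18 ± 0.42, adjusted p = 0.466). ERBB3 at 6.39, 9.19 and 5.19 CPM (-1.12 ± 0.51, adjusted p = 0.622) overlapped its controls, since 9.19 exceeds the lowest control at 8.73. EREG passed in DESeq2 (adjusted p = 0.0229), and AREG (0.0391) and EREG (0.000151) passed with no filter beyond 1 count.

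HBEGF stayed high with the label, at 56.0, 81.1 and 199.8 CPM (-0.23 ± 0.42, adjusted p = 0.958). NRG1 held 43.4, 67.7 and 99.6 CPM, TGFA 8.37, 7.48 and 7.84 CPM and BTC 2.52, 1.27 and 0.371 CPM, all overlapping their controls. For ERBB4 the values were 0.792, 0.886 and 0.432 CPM (1.18 ± 0.97, adjusted p = 0.843). The difference between the 2 knockout effects passed for 0 of the 10, against 0.0279% of all genes (5 genes). It was largest for EREG, where a group at 0 enters the fit (adjusted p = 0.855), and ERBB4 (3.62 ± 1.36, adjusted p = 1.000).

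**Figure D4:**
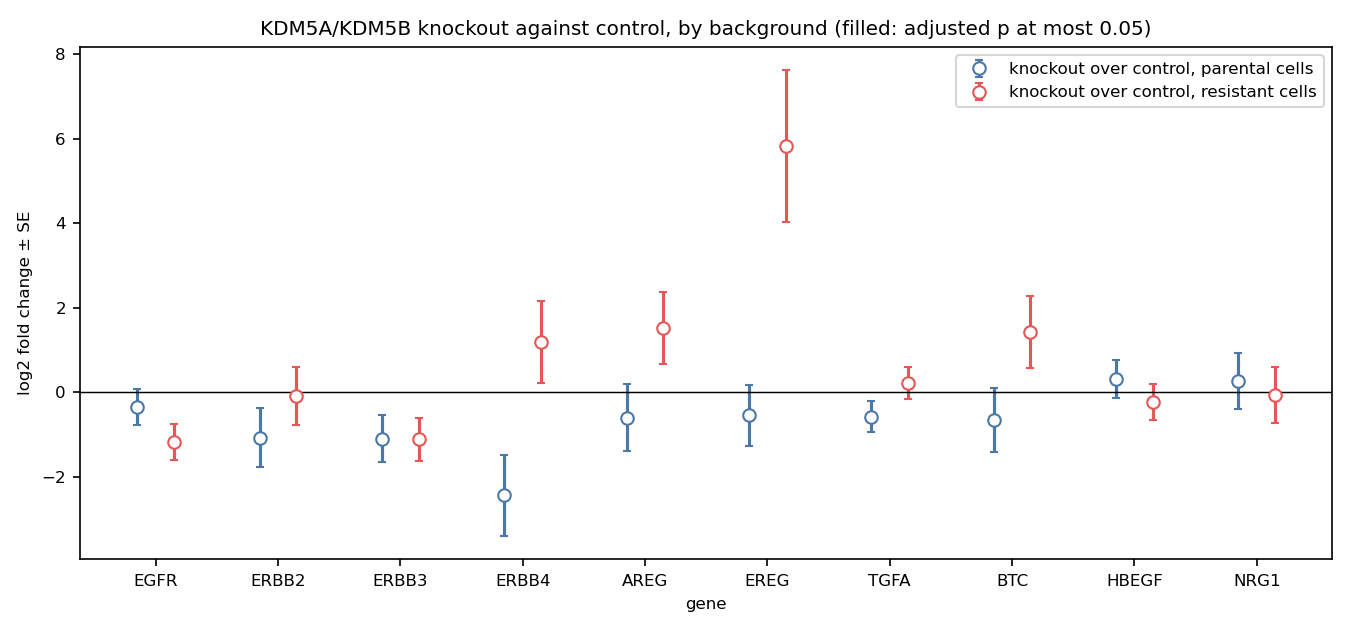
Log2 fold change with SE of each gene with the KDM5A and KDM5B knockout label over its control, in parental (blue) and resistant cells (red); open points have an adjusted p above 0.05. All 20 points are open, and the high EREG point in resistant cells is a fitted value against controls at 0 counts, which depends on the prior count.

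Among libraries labelled knockout, resistant cells again differed from parental cells, using 6 libraries that the first comparison did not. The comparisons are not independent. Parental libraries of the same number, with and without the label, deviated alike (r of 0.70 to 0.83), and all 12 libraries share a fit and its estimate of the spread. ERBB3 and HBEGF were higher and EREG, EGFR, TGFA and BTC lower, 6 of 10 where 23.9% of all genes passed. The 2 higher stand against 13.6% of all genes and the 4 lower against 10.2%, and 6 did not overlap, against 37.2%. HBEGF rose from 4.21, 4.65 and 5.17 CPM to the 56.0 to 199.8 CPM above (log2 fold change 4.58 ± 0.49, adjusted p = 6.66e-05). ERBB3 rose from 0.551, 1.29 and 0.804 CPM (2.98 ± 0.56, adjusted p = 0.00273). For both genes the lowest resistant library exceeded the highest parental one. EGFR fell from 278, 669 and 313 CPM (-2.51 ± 0.44, adjusted p = 0.00172), and EREG fell with 21 counts over the resistant group (-4.72 ± 0.89, 0.00383). TGFA fell by 2.00 ± 0.39 (adjusted p = 0.00330). BTC fell from 4.96, 12.1 and 6.55 CPM (-2.48 ± 0.81, adjusted p = 0.0417). The BTC call was lost without parental library 2 labelled knockout (-2.03, adjusted p = 0.124), without resistant library 2 so labelled (-2.43, 0.119) and without library 3 (-2.04, 0.0982).

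AREG (-1.38 ± 0.82, adjusted p = 0.238) and ERBB2 (-1.32 ± 0.70, 0.188) did not pass among the labelled libraries, and their groups overlapped. For AREG the sign turned without parental library 2 labelled knockout (0.18). That does not show a difference from the first comparison, since the tests of the difference gave 2.12 ± 1.16 for AREG and 0.99 ± 0.97 for ERBB2, both with an adjusted p of 1.000. HBEGF made up 6.90 ± 3.29% of the ligand level in parental and 71.4 ± 8.73% in resistant libraries labelled knockout.

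The wider pathway was read from lists of named genes, whose counts stand beside the 15.2% higher and 12.8% lower and the median log2 fold change of 0.02 over all genes. The lists were chosen with earlier results of these data known, so the counts are a description and no test of enrichment. Of 5 other EGF-family ligands only NRG2 and NRG4 passed the filter. NRG2, a ligand of ERBB3 and ERBB4, rose from 0.119, 0 and 0.104 CPM to 6.54, 2.62 and 1.68 CPM (log2 fold change 5.43 ± 0.92, adjusted p = 0.00111). The parental libraries held only 2, 0 and 2 counts of NRG2, so the size of this change is uncertain. EGF, EPGN and NRG3 had at most 8 counts in any library. Of 9 genes for release of ligands 1 passed: the protease ADAM19 rose from 5.20 ± 4.88 to 45.8 ± 19.1 CPM (3.13 ± 0.76, adjusted p = 0.00879), while ADAM17 (0.27 ± 0.39) and ADAM10 (0.04 ± 0.48), the main sheddases, did not pass.

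Among 28 adaptors and effectors, 1 was higher and 5 lower in resistant cells, with a median log2 fold change of -0.44. SHC1, an adaptor that binds phosphorylated receptors, rose from 108 ± 37.4 to 355 ± 51.0 CPM (1.71 ± 0.37, adjusted p = 0.00449). The docking protein GAB2 fell by 1.56 (adjusted p = 0.0372), the kinase BRAF by 1.06 (0.0420) and the phosphatase PTPN11 by 1.04 (0.0303). All 3 calls were lost without parental library 2, where GAB2 was at -0.95 (adjusted p = 0.213), BRAF at -0.78 (0.187) and PTPN11 at -0.82 (0.136). They were lost as well without resistant library 1, at -1.73 (adjusted p = 0.0634), -1.06 (0.0951) and -0.89 (0.0998), and without resistant library 2, at -1.52 (0.105), -1.04 (0.114) and -0.98 (0.0967), in the same order. GAB2 and BRAF were also lost without parental library 1 (-1.67, adjusted p = 0.0555, and -1.06, 0.0873) or resistant library 3 (-1.39, 0.106, and -1.05, 0.0875). BRAF was lost too without resistant library 1 (-1.07, adjusted p = 0.0548) or 2 (-1.07, 0.0560) labelled knockout, which enter only the estimate of the spread. PIK3CA and NRAS also fell, by 0.89 and 0.82 on the log2 scale. Of 20 genes for receptor turnover and inhibition 0 were higher and 7 lower. SPRY2, a feedback inhibitor of the RAS pathway, fell by 2.41 (adjusted p = 0.000350), SPRY1 by 1.94 (0.0172), SPRY4 by 1.83 (0.0388) and the phosphatase PTPN12 by 1.45 (0.000928). The calls of SPRY1 and SPRY4 depended on single libraries: without resistant library 2 they were -1.82 (adjusted p = 0.0666) and -1.61 (0.132). SPRY1 was also lost without resistant library 3 (-1.56, adjusted p = 0.0743), and SPRY4 without resistant library 1 (-1.56, 0.126) or parental library 1 (-1.89, 0.0686), 2 (-1.74, 0.0975) or 3 (-1.85, 0.0628). ERRFI1 (0.09 ± 0.44) and LRIG1 (1.15 ± 0.41, adjusted p = 0.0553), which restrain EGFR, did not pass.

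Genes induced by MAP kinase signalling were mostly lower, 10 of 14 with 1 higher and a median log2 fold change of -2.09. SPRY2 and SPRY4 are on this list too, so they count among these 10 and among the 7 lower turnover genes. PHLDA1, an ERK-induced gene, fell from 563 ± 302 to 21.6 ± 3.37 CPM (-4.70 ± 0.56, adjusted p = 9.60e-05). The phosphatase DUSP4 fell from 93.2 ± 32.1 to 4.47 ± 1.24 CPM (-4.38 ± 0.57, 0.000183). FOSL1, an AP-1 subunit, fell by 3.58 ± 1.02 (adjusted p = 0.0201), a call lost without parental library 2 (-3.30, 0.0545), resistant library 1 (-3.08, 0.0535) or resistant library 2 (-3.35, 0.0770). EGR1, an immediate early factor, went the other way, from 4.80 ± 1.68 to 103 ± 85.9 CPM (4.41 ± 0.82, adjusted p = 0.00200). It was highest in resistant library 3, at 201 CPM, the library in which HBEGF was also highest. The fibroblast marker sum also differed between parental and resistant cells, as given above. In resistant libraries labelled knockout it was higher still, at 2556 to 4495 CPM. Only 0.212% of all genes passed for the label in resistant cells, so 0 calls in the MAP kinase list says little. The median log2 fold change of the list was 0.11, against 0.04 for all genes. The part of the fibroblast markers was not tested.

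The same lists were read among libraries labelled knockout, where 13.6% of all genes were higher and 10.2% lower. MAP kinase genes had 1 higher and 6 lower of 14, with EGR1 at 4.85 ± 0.84 (adjusted p = 0.00156), PHLDA1 at -3.90 ± 0.54 (0.000373), DUSP4 at -2.93 ± 0.53 (0.00216) and ETV5 at -1.90 ± 0.48 (0.0129). Adaptors had SHC1 higher and GAB2 and BRAF lower, turnover genes SPRED1, PTPN12 and SPRY2 lower, and NRG2 and ADAM19 rose again. SPRY2 also counts among the 6 lower MAP kinase genes. Of the genes around ERBB2, PPP1R1B, PNMT, NEUROD2 and MIEN1 were lower and THRA, 370376 bases away, higher. Several of these calls rested on single libraries. Without parental library 2 labelled knockout GAB2 (-0.93, adjusted p = 0.221), BRAF (-0.76, 0.144), ADAM19 (1.94, 0.0918), ETV5 (-1.36, 0.0620), SPRED1 (-0.87, 0.0588) and SPRY2 (-0.77, 0.142) did not pass. Without parental library 3 so labelled MIEN1 (-1.10, adjusted p = 0.126) and PNMT (-2.07, 0.0766) did not. Each of these 8 also lost its call without at least 1 resistant library labelled knockout. Within parental cells, within resistant cells and for the difference of its effects, the knockout label gave 0 calls in every list.

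**Figure D5:**
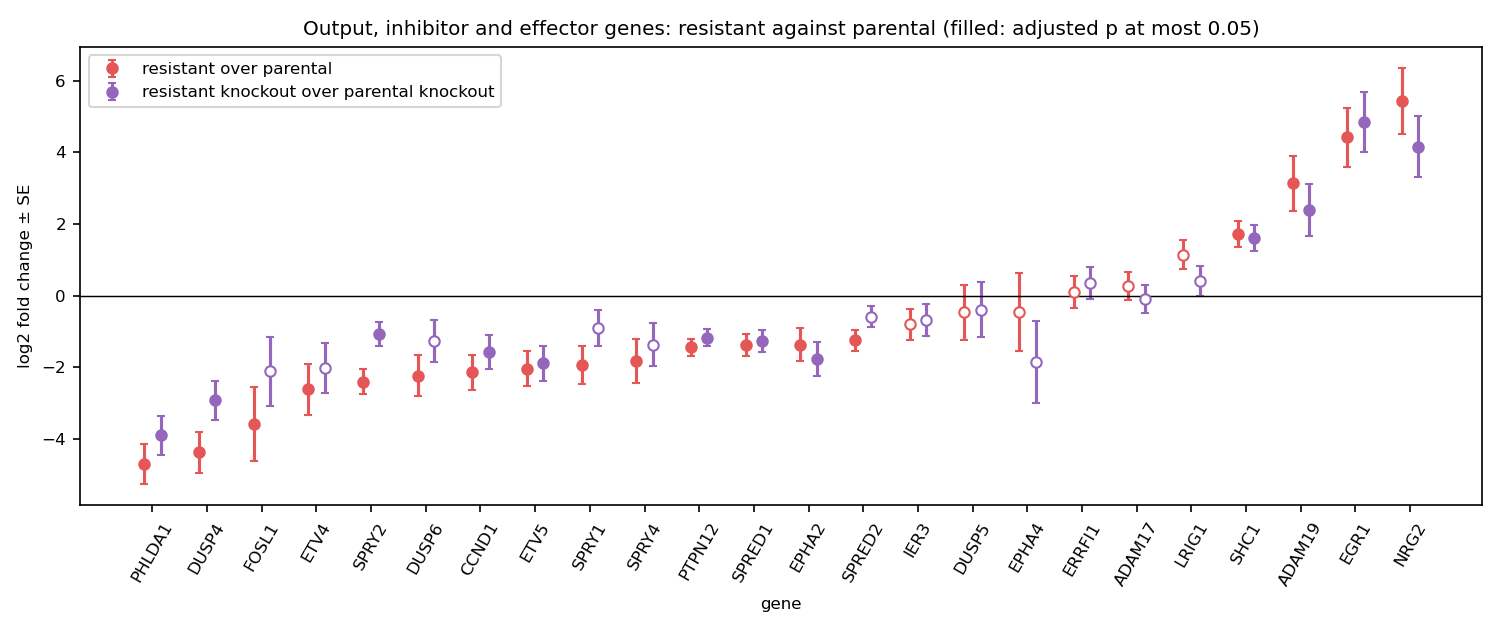
Log2 fold change with SE of named ligand, release, effector, inhibitor and MAP kinase output genes for resistant over parental cells (red) and the same among libraries labelled knockout (violet); filled points have an adjusted p of at most 0.05. PHLDA1 is lowest at -4.70 and -3.90, and EGR1 stands at 4.41 and 4.85.

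The genes most like ERBB2, EGFR and AREG in how libraries deviated from their group mean were found among protein-coding genes averaging at least 5 CPM. For ERBB2 they were MATN2 (r = 0.99), AKT2 (0.98), PIP4K2B (0.98), ASPH (0.97) and IGFBPL1 (0.97), over 12 libraries. MATN2 measured 4.54, 7.43 and 20.8 CPM in parental and 273, 122 and 121 CPM in resistant libraries, so it followed ERBB2 within groups but not between them. For EGFR they were SLC6A9 (0.97), ADCY9 (0.97), SLC30A1 (0.97), SGPL1 (0.97) and SLC35A2 (0.96). For AREG they were TRIM39 (0.96), SNAPC1 (0.96), ZNF623 (0.96), PHLDB2 (0.95) and LAMB3 (0.95), and LAMB3 measured 978, 1828 and 634 CPM in parental libraries, highest in library 2 as AREG was. With 11227 genes ranked for each, these values describe the libraries.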

How the data were processed

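RNA of 12 libraries was measured, and the deposited values are raw read counts per gene. Per the labels' protocols, poly(A) RNA went into a directional library kit. The submitters' processing notes name Trim Galore 0.6.10, then STAR 2.7.10a, also featureCounts 2.0.1, and the build GRCh38. Which annotation was used, whether reads were counted by strand and how reads with several hits were treated is not given there. The table held 59542 rows with 59498 identifiers; 44 identifiers stood on 2 rows with 0 reads. A second deposited copy was equal in all 833588 cells compared. Headers of 2 columns differ by a letter from the labels and, with no other match, were taken as resistant libraries 2 and 3. Coordinates and exon lengths came from GENCODE release 29, promoters from RefSeq.

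From the counts, genes were filtered with filterByExpr (17947 kept), scaled with TMM and fitted over all 12 libraries with a mean per group in edgeR 4.0.16 (R 4.3.3), leaving 8 residual degrees of freedom. A total of 5 contrasts were tested with the robust quasi-likelihood test and Benjamini-Hochberg adjustment over all genes at 0.05; adjusted p-values come from it unless another tool is named. Levels are CPM of the effective library size, as mean ± SD over 3 libraries. The SE is the absolute log2 fold change over the square root of F, and log2 CPM used a prior count of 2. Intervals and floors cover counting error only; reads carry no molecular identifiers. KDM5A and KDM5B were tested by exact permutation within backgrounds (400 arrangements).

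The members and gene lists were chosen with earlier results of these data known. Named genes are the 10 members, KDM5A and KDM5B, up to 4 members per list and contrast with the largest change among those that passed with at least 1 CPM, the tested neighbours of ERBB2, and the 5 genes most like ERBB2, EGFR and AREG. Some genes of the adaptor list are not reported here, and its counts leave them out. Others were named after their values were seen: the remaining called adaptors, NR1D1 and THRA, and pathway genes that did not pass.

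Deviations from group means of parental libraries and those labelled knockout correlated at 0.70 to 0.83 for the same number, so numbers pair these libraries. In resistant cells the values were 0.62 for number 1, -0.25 for number 2 and 0.70 for number 3. Numbers therefore pair the resistant libraries only in part. Resistant library 1 also deviated like library 2 labelled knockout (0.44). Alternatives were other size factors, other filters, DESeq2 1.42.0, limma-voom (limma 3.58.1), fewer groups, a replicate block and leaving libraries out; leaving out resistant library 1 with both parental libraries numbered 3 was added after seeing the data.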

Additional observations from a re-analysis of the deposited data

How the results depend on the processing

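Of 1860 single-gene values recomputed under alternatives, 1735 kept their direction and their side of the threshold, 83 lost and 15 gained the call, and 27 turned sign, all in values that had not passed. HBEGF, ERBB3, EREG, TGFA and BTC kept their calls between resistant and parental cells in all 22 alternatives, and HBEGF, ERBB3, EREG, EGFR and TGFA did so among libraries labelled knockout. Members called between resistant and parental cells ranged from 6 to 9 on leaving out 1 library, and from 5 to 6 among libraries labelled knockout, where library size alone gave 5 and no filter beyond 1 count gave 8. Genes with few counts, such as ERBB4 and EREG in resistant cells, limit what depth can show.

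With no filter beyond 1 count, 2 members (AREG and EREG) passed for the knockout label in resistant cells and 1 (EREG) for the difference of the knockout effects; DESeq2 gave 1 (EREG) in resistant cells. With no filter 41281 genes were tested and with at least 1 CPM in 3 libraries 16318, against 17947, which DESeq2 and limma-voom also tested; the cause of the differing calls was not tested. The replicate block over all libraries gave 8 members between resistant and parental cells and changed no member's call in any of the 5 comparisons. The replicate block within background, where numbers pair the resistant libraries only in part, gave 2 members (AREG, 1.47, and EREG) in resistant cells. For the difference it gave 2 (AREG and EREG). This block gives no value between backgrounds.

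Over all genes, the knockout label in parental cells gave 83 genes with no filter, 11 in DESeq2, 1 in limma-voom, 1 with the replicate block and 154 with the block within background, against 0. In resistant cells the counts were 451, 249 in DESeq2, 939 with the block within background and 66 without both parental libraries numbered 3, against 38, and 4 to 50 on leaving out 1 library, with 17 or fewer without any 1 of the 6 resistant libraries. For the difference they were 161, 67 in DESeq2, 18 with the block, 274 with the block within background, 11 with library size alone and 10 without both parental libraries numbered 3, against 5, and 3 to 8 on leaving out 1 library. Leaving out parental library 2 gave 3081 genes between resistant and parental cells, against 5030. Among libraries labelled knockout, leaving out resistant libraries 1 or 2 gave 2715 and 2714, against 4281. Library size alone moved the median of all genes there from 0.00 to 0.15 on the log2 scale and the split from 2445 higher and 1836 lower to 2928 and 1368.

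Signs turned as follows, with ranges over leaving out 1 library, which breaks a pair of same-numbered parental libraries where it takes 1 of them. For the label in parental cells, ERBB2 ranged from -2.16 to 0.036 (the latter without parental library 3), AREG from -2.17 to 0.65 and EREG from -1.30 to 0.55 (without parental library 2), and NRG1 from -0.23 to 0.76, with -0.18 without parental library 1. In resistant cells ERBB2 ranged from -0.29 to 0.39 and was 0.013 in limma-voom, 0.020 with the replicate block within background and 0.38 without both parental libraries numbered 3 and resistant library 1. HBEGF ranged from -0.95 to 0.18, TGFA from -0.076 to 0.99 and NRG1 from -0.40 to 0.19. Among libraries labelled knockout AREG ranged from -1.87 to 0.18 and NRG1 from -0.0012 to 1.00. For the difference ERBB2 ranged from -0.13 to 2.07, NRG1 from -0.83 to 0.17 and ERBB3 from -0.74 to 0.47, and ERBB3 was 0.14 with library size alone.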
